A study of Mus musculus with 3 samples.

Results

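The genes described here encode the proteins of the cytoplasmic ribosome. They were taken by symbol (names that begin with Rpl or Rps and a digit, the stalk genes Rplp0, Rplp1 and Rplp2, and Rpsa, without names that hold "-ps") with a mean of at least 5 counts per 1e6 UMIs (CPM) over the 3 libraries. The symbols of 96 genes matched and 90 of the 32285 genes in the table passed the level. Of these 90, 81 encode ribosomal proteins, 48 of the large subunit and 33 of the small. The other 9 only share the letters: Rps6ka1, Rps6ka2, Rps6ka3, Rps6ka5, Rps6kb1, Rps6kb2 and Rps6kc1 encode kinases of the S6 kinase type, Rps19bp1 encodes a binding partner of Rps19, and Rpl7l1 a relative of Rpl7. Just inside the level lay Rps6ka2 at 5.51 CPM, and just outside it Rpl3l at 2.76 CPM. Shares and counts below refer to the 81 ribosomal proteins unless the kinases and binding proteins are named. The ribosomal genes Fau and Rack1 carry other symbols, were not members, and are given apart.

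The study sorted CD45-positive (leukocyte) cells from hearts of C57BL/6J mice aged 8-9 weeks and profiled them by droplet single-cell RNA sequencing of transcript 3′ ends. There was 1 library for each of 3 groups, labelled Sham, MI and MI-E. MI is the usual abbreviation of myocardial infarction. MI-E is not expanded in the labels, and the same surgical text, a ligation of the left anterior descending coronary artery, stands on all 3 samples, Sham included. The time after surgery and the number of hearts pooled are not given in the sources used here. With 1 library per group no difference has a replicate check, so no test was made: values are shares or CPM of unique molecular identifiers (UMIs, one per captured transcript) with 95% intervals that cover counting error only. Groups of 3 values are in the order Sham, MI, MI-E.

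A eukaryotic ribosome joins a small subunit, which reads the messenger RNA, and a large subunit, which forms the peptide bond. Its proteins are needed in nearly equal numbers, and many of their messenger RNAs begin with a run of pyrimidines, the terminal oligopyrimidine tract, through which mTORC1 signalling controls their translation. Resting lymphocytes are known for transcriptomes rich in these messages, and mature neutrophils for few of them.

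The start sites of 5 members that the results turn on are shown to let the tract be seen in sequence. They are RefSeq promoters of GRCm38.p6, each read 5′ to 3′ on the gene's own strand from 35 bases before the start site to the first 25 transcribed bases. Capitals mark the longest run of at least 8 bases made only of C or T that touches the 20 bases on either side of the start, or the first of equally long ones. Rpl35 lies on the minus strand at chr2:39005107-39005166, Rpl13a on the minus strand at chr7:45128721-45128780, Rps27 on the minus strand at chr3:90213624-90213683, Rps27l on the plus strand at chr9:66946051-66946110 (the first of 2 listed starts) and Rps28 on the minus strand at chr17:33824538-33824597.
Rpl35: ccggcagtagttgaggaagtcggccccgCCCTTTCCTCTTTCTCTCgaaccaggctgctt
Rpl13a: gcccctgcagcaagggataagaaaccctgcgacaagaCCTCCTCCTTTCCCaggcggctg
Rps27: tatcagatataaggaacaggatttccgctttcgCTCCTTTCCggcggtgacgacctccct
Rps27l: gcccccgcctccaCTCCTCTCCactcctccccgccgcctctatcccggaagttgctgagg
Rps28: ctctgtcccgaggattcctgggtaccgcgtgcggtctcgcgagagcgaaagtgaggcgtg

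The run was 18 bases long in Rpl35 and crossed the listed start, 14 in Rpl13a and 9 in Rps27. In Rps27l the marked run of 9 bases was followed, after a single a, by another of the same length, and both ended before the listed start. In Rps28 no such run was found in the window. Promoter entries matched 61 of the 81 members. Such a run, searched on the gene's own strand only, was found in 32 of these 61 (52.5%) and in 6363 of 26948 other genes (23.6%). A match is a description of letters, not a mapped start. Outside the tract the members had little in common by position: the 81 loci lay on 19 chromosomes, with 4 on the X chromosome, and their transcripts had a median length of 878 bases (345 to 5179).

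The libraries held 11357 Sham, 9095 MI and 12707 MI-E barcodes, and 10079, 8169 and 11989 cells were kept. Median depth differed, at 2825, 9460 and 7409 UMIs per kept cell. The libraries shared between 26 and 45 barcodes in pairs. Cells were clustered without the member genes into 24 clusters, and classes were named from marker lists: monocyte-macrophage-like, neutrophil-like, dendritic-cell-like and so on, written without the suffix below. These are rebuilt names, and 4 clusters (1113 Sham, 1748 MI and 1453 MI-E cells) stayed unnamed. All 4 scored highest for the macrophage or monocyte marker list. They were left out for low UMI counts or for leading genes of another class. Among them were cluster 22, led by Gpnmb and Fabp5 (1244 MI and 896 MI-E cells), and cluster 1 (1072 Sham cells). The CD45 sort also held 375 Sham, 90 MI and 301 MI-E endothelial cells and 51, 63 and 135 fibroblasts.

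Ribosomal protein transcripts took a share of the transcriptome that differed several-fold between cell classes. In Sham they made up 42.8% of the summed UMIs of T cells (713 cells), 33.4% of B cells (2964), 27.9% of dendritic cells (129), 22.1% of NK cells (302), 15.7% of monocyte-macrophages (3883) and 5.67% of neutrophils (420). Endothelial cells lay at 18.2% and fibroblasts at 17.7%. Against Sham monocyte-macrophages the share was 2.72-fold in T cells, 2.13-fold in B cells and 1.78-fold in dendritic cells, and neutrophils lay 2.77-fold below. T, B and dendritic cells lay above monocyte-macrophages and neutrophils below them also in MI-E, where B cells were at 2.37-fold and T cells at 2.07-fold, and, where the classes held at least 50 cells, in MI. The median Sham neutrophil lay at 3.96%, below the summed share of its class. Their class also held transcripts of the B-cell marker list at 653 CPM, against 45.2 CPM (MI) and 38.3 CPM (MI-E) in the others, with all 10 of 10 markers seen in Sham and 2 of 10 in MI. The part of these transcripts in the Sham value was not tested.

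**Figure D1:**
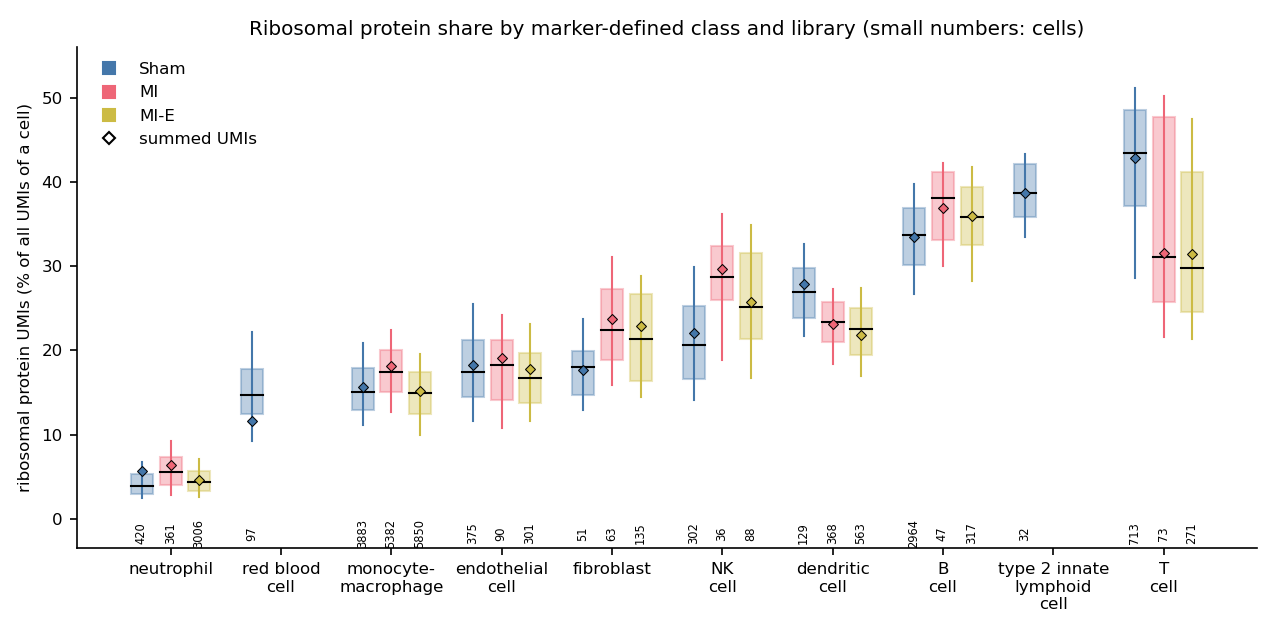
Share of UMIs from the 81 ribosomal protein genes (y axis, percent) per cell, by marker-defined class and library (x axis): boxes span the quartiles of cells, the black line is the median, whiskers reach the 10th and 90th percentiles, diamonds give the share of summed UMIs, and the small numbers are cells. Sham T cells sit highest with a summed share of 42.8%, and neutrophils sit lowest in every library, between 4.68% and 6.37%.

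The balance of the subunits varied far less than the amount. Small subunit transcripts made up between 44.3% and 48.3% of the ribosomal protein UMIs in all 22 class and library sums of at least 50 cells. Monocyte-macrophages gave 45.8%, 45.0% and 45.0%, and T cells gave 48.3%, 46.3% and 46.3%. Both subunits thus stood at a nearly fixed ratio while the summed share ranged widely.

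In monocyte-macrophages the share was 15.7%, 18.1% and 15.2%, over 3883, 5382 and 5850 cells. MI stood 1.15-fold above Sham (1.152 to 1.155) and MI-E 1.19-fold below MI. Median cells gave the same order, at 15.1%, 17.5% and 14.9%. The unnamed cells, which this class leaves out, gave 20.1%, 16.0% and 13.2%, and the closing section gives ratios with them added. Ribosomal protein UMIs per cell numbered 768, 1692 and 1347, on median depths of 5032, 9564.5 and 9083.5 UMIs. The summed level of dissociation stress genes, the immediate early and heat shock messages that tissue digestion is known to raise, was 26542, 6726 and 6916 CPM, and its part in the Sham share was not tested.

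The higher share in MI was not seen in every cluster. The largest Sham clusters (led by Lilra5 and Mgl2, and by the resident macrophage genes Lyve1, Cd163 and Timd4) held 91.5% of Sham monocyte-macrophages, whereas the largest MI clusters, a different pair, held 47.3% of the MI cells. Within the Lyve1 cluster the share was 14.9% in Sham and 16.1% in MI, a 1.08-fold ratio, and in the Lilra5 cluster it was 15.6% and 16.8%, also 1.08-fold. In the monocyte cluster led by Ly6c2, Plac8 and Vcan the order was the opposite, with 22.2%, 18.8% and 16.4%. The geometric mean of the 3 MI over Sham ratios was 0.995, so the pooled difference was not present when these 3 clusters were weighted equally. In the order Lyve1, Lilra5 and Ly6c2 they held 1352, 2201 and 141 Sham cells but 161, 54 and 518 of the 5382 MI cells. Most MI cells thus lay outside them and had no such comparison. The difference from MI to MI-E held its direction in the clusters: all 7 monocyte-macrophage clusters with at least 50 cells of both had a lower share in MI-E, with ratios from 0.806 to 0.906. Over all classes, 14 of 15 such clusters were lower in MI-E with an interval below 1, and in the T-cell cluster, at 0.998, the interval held 1.

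**Figure D2:**
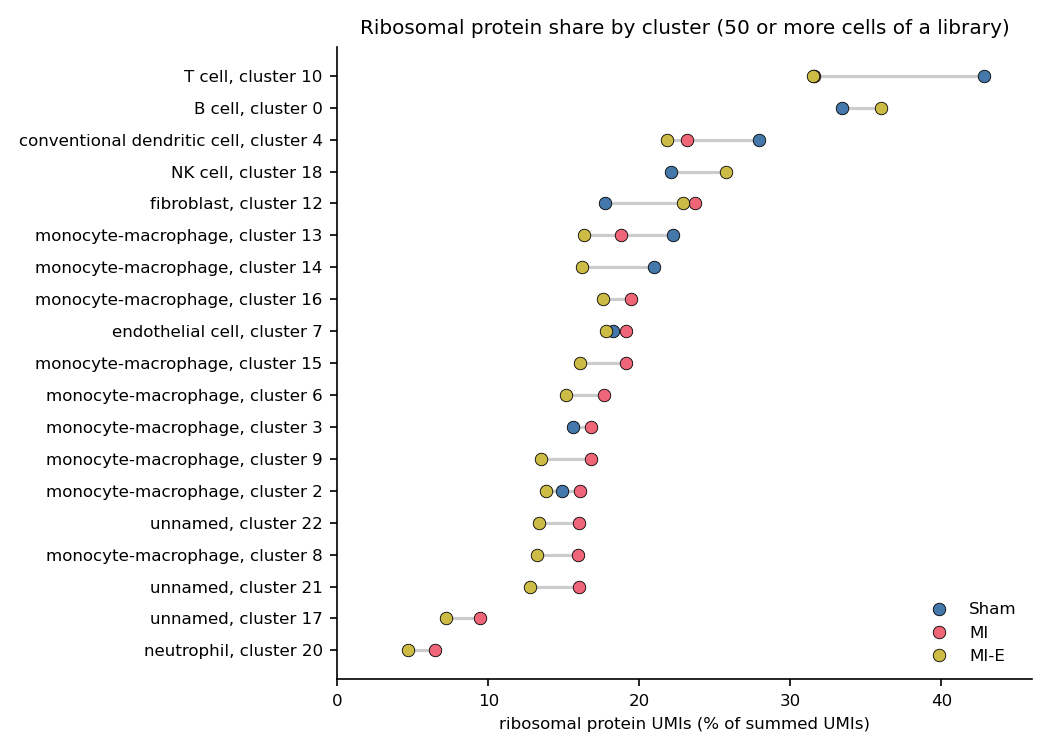
Share of summed UMIs from ribosomal protein genes (x axis, percent) by cluster (y axis), with 1 point per library. Clusters with at least 50 cells in at least 2 libraries are drawn. MI-E points lie to the left of MI points in the 15 clusters that hold both, by less than the counting interval in the T-cell cluster. MI against Sham goes both ways, higher in the Lyve1 cluster (14.9% to 16.1%) and lower in the Ly6c2 cluster (22.2% to 18.8%).

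Single members moved unequally within monocyte-macrophages. Between Sham and MI, 8 of the 81 were at least 1.5-fold higher in MI, against 25.0% of the 8458 genes measured, and 1 was at least 1.5-fold lower, against 18.1%. Members past the bound were thus a smaller part of the 81 than of all genes in both directions. Their median log2 ratio was 0.26 (all genes 0.13), with 68 members above equality. With TMM scaling, which moved the median of all genes up by 0.14, 21 members were higher and none lower. From MI to MI-E none was 1.5-fold higher (all genes 4.90%) and 5 were lower, near the share of all genes (7.06%). The median was -0.23, against -0.01 for all genes, and 63 members lay below equality.

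The highest ratio of MI to Sham was that of Rps27l, which encodes a paralog of the small subunit protein Rps27 and is a known p53 target. Its level was 321, 808 and 615 CPM, and MI stood 2.51-fold above Sham (2.45 to 2.58). Rps15, a small subunit protein near the decoding site, stood at 285 and 564 CPM in Sham and MI (1.98-fold), and Rpl36al, a paralog of the large subunit protein Rpl36a, at 654 and 1183 CPM (1.81-fold). Also among the highest were Rpl23a (250 and 425 CPM), which lies at the exit of the nascent chain, and the very short Rpl41 (3977 and 6419 CPM). These members spanned both subunits.

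At the other end stood Rps27 itself. It gave 3545, 2437 and 2186 CPM, so MI lay 1.45-fold below Sham. Its near-copy Rps27rt, which can take reads of Rps27, stood at 74.6 and 48.4 CPM and was the member past 1.5-fold, at 1.54-fold lower. Rpl10, a large subunit protein that joins late in maturation, stood at 1933 and 1454 CPM. Rpl7 (1343 and 1077 CPM), Rps4x (2590 and 2141 CPM, X-linked) and Rpl21 (1668 and 1387 CPM) followed. Rps27 and Rps27l thus differed in opposite directions between the same libraries.

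**Figure D3:**
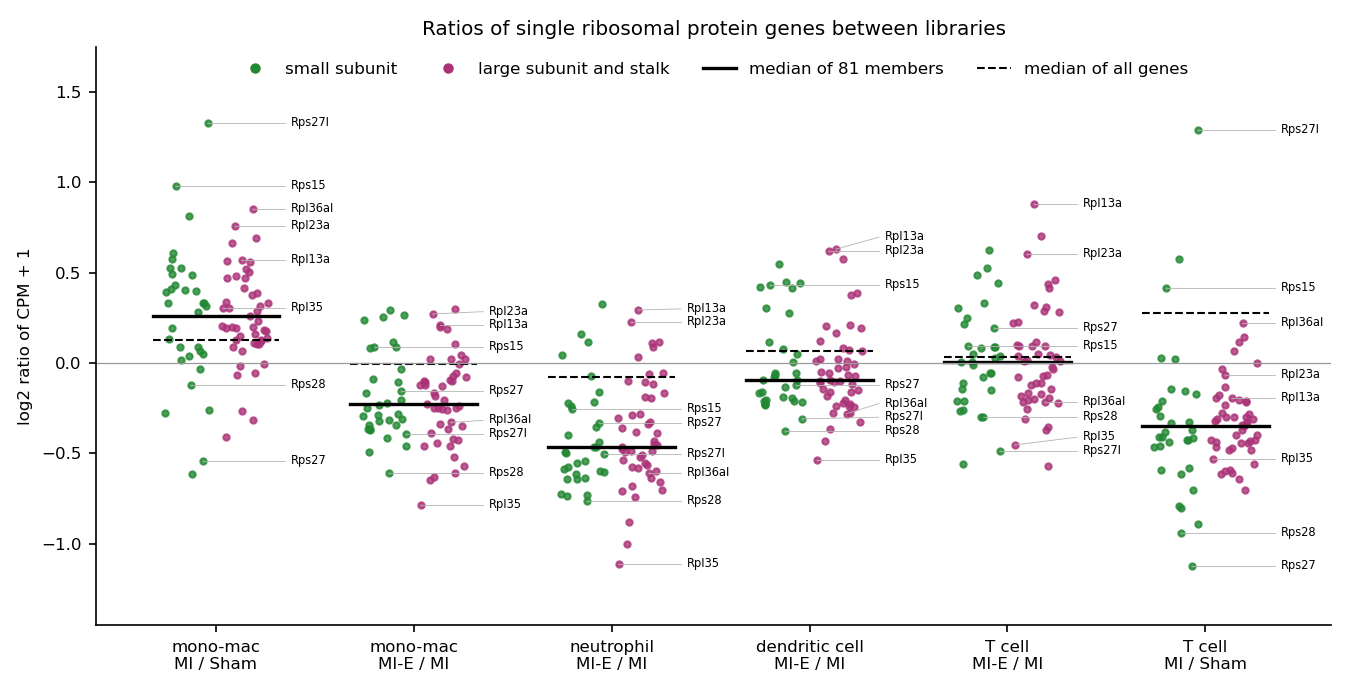
Log2 ratios of CPM + 1 (y axis) for each of the 81 ribosomal protein genes in 6 comparisons (x axis, class and pair of libraries), 1 point per gene, green for the small and purple for the large subunit, with the members' median as a solid line and the median of all measured genes dashed. In monocyte-macrophages the members' median lies at 0.26 for MI over Sham and at -0.23 for MI-E over MI, and Rps27l is the highest point of the former.

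Rpl35 led the members that were lower in MI-E. This large subunit protein, next to the exit tunnel, was at 1796, 2223 and 1288 CPM, so that MI-E lay 1.73-fold below MI. Rpl37a, a zinc-binding protein of the large subunit, gave 4650 and 2972 CPM in MI and MI-E, Rpl39, a tunnel protein, 3397 and 2190 CPM, and Rps28, at the messenger RNA exit of the small subunit, 3799 and 2494 CPM. Rpl22l1 (592 and 388 CPM), a paralog of Rpl22, and Rpl37 (3415 and 2301 CPM) completed the 6 lowest. Members that were higher in MI-E differed less: Rps27rt stood at 48.4 and 59.7 CPM, Rpl4 at 448 and 551 CPM, Rpl23a at 425 and 513 CPM, Rps25 at 739 and 887 CPM, Rps12 at 1570 and 1877 CPM and Rps6 at 725 and 855 CPM, all between 1.18-fold and 1.23-fold.

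Transcript length went weakly with this difference, at a Spearman rho of 0.233 over the 81 members. For the same libraries rho was 0.116 in neutrophils, 0.138 in dendritic cells and 0.044 in T cells. In monocyte-macrophages the 27 shortest members (up to 731 bases) had a median log2 ratio of -0.32 for MI-E over MI and the 27 longest (over 1029 bases) -0.11. Other genes of the same lengths had medians of -0.38 (229 genes) and 0.02. The part of length in the members' difference was not tested.

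Proteins with known roles beyond the core were read as a group. The stalk, which recruits the translation factors, is built of Rplp0, Rplp1 and Rplp2: in monocyte-macrophages Rplp0 stood at 2462, 2897 and 2788 CPM, Rplp1 at 2124, 2414 and 2486 CPM, and Rplp2 at 1265, 1875 and 1724 CPM. Rps6, the substrate of the S6 kinases, stood at 553, 725 and 855 CPM. The 3 stalk genes and Rps6 were higher in both MI and MI-E than in Sham. Rpl5 and Rpl11, which bind Mdm2 when assembly is disturbed, differed in pattern, Rpl5 with 293, 465 and 472 CPM and Rpl11 with 2057, 2564 and 1912 CPM. Rpl13a, known as a regulator of inflammatory messages in interferon-treated monocytes, gave 392, 582 and 674 CPM and was highest in MI-E. Rps19, the gene most often mutated in Diamond-Blackfan anaemia, gave 2580, 3613 and 2900 CPM, and Rpsa, also known as the laminin receptor, 2041, 2574 and 2294 CPM. The most abundant member in Sham was Rps29, at 8612, 7184 and 5230 CPM.

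Neutrophils carried the fewest ribosomal protein transcripts. Their share was 5.67%, 6.37% and 4.68%, on 420, 361 and 3006 cells, or 70.5, 103 and 99 such UMIs per cell. MI-E lay 1.36-fold below MI. From MI to MI-E no member was 1.5-fold higher (all genes 9.35%) and 22 were lower (15.2%), with a median log2 ratio of -0.47 against -0.07 for all genes. Rpl35 stood at 513 and 237 CPM in MI and MI-E (2.17-fold lower), Rpl37a at 1665 and 831 CPM, and Rpl10a, a protein of the large subunit's mobile stalk, at 264 and 143 CPM. Rps25, needed for initiation at some viral internal sites, went the other way at 328 and 412 CPM, as did Rpl13a at 151 and 185 CPM. Rpl23a was at 131 and 153 CPM, with an interval of the ratio that held 1 (0.962 to 1.44).

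The change of neutrophils from Sham to MI depended on the clustering. The ratio of shares was 1.12, but it was 0.911, with 6.69% in Sham and 6.10% in MI, when each library was clustered alone. In the joint clustering 17 members were 1.5-fold higher (all genes 42.4%) and 2 lower (17.3%). The class lay in different clusters: 392 of the 420 Sham cells were in a cluster led by Retnlg, while 342 of the 361 MI and 2972 of the 3006 MI-E cells were in one led by Cstdc4 and G0s2, so no cluster held 50 cells of both Sham and MI. Rps27l had the largest ratio, from 60.0 CPM in Sham to 309 CPM in MI (5.15-fold, 3.78 to 7.17), followed by Rpl36al (105 and 333 CPM) and Rps15 (105 and 264 CPM). All 3 lay past 1.5-fold in the higher direction.

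Against monocyte-macrophages of Sham, neutrophils had 78 of 81 members at least 1.5-fold lower (all genes 57.8%) and none higher (20.7%). The other 3 were nearer to equal in both classes, and their order changed with the processing. Rps9, a small subunit protein at the messenger RNA entry, stood at 2672 CPM in neutrophils and 2431 CPM in monocyte-macrophages (1.10-fold, 1.05 to 1.15). Over cells of at least 2000 UMIs its log2 ratio was -0.13. Rps27 stood at 3161 and 3545 CPM and Rps27rt at 78.7 and 74.6 CPM. Next came Rps27a, which is made as a fusion with ubiquitin, at 1820 and 2814 CPM (1.55-fold lower). The largest gaps were those of Rps4x (395 and 2590 CPM, 6.56-fold lower), Rpl36al (105 and 654 CPM), Rpl3 (242 and 1502 CPM), which forms part of the peptide bond centre, and Rpl7a (160 and 928 CPM). Rps9 itself was lower in the other neutrophil libraries, at 1647 CPM (MI) and 1471 CPM (MI-E). Fau, the ubiquitin-like fusion that yields a small subunit protein, stood above monocyte-macrophages in Sham neutrophils (6584 and 5370 CPM), whereas Rack1, a scaffold on the small subunit, was 5.47-fold lower.

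**Figure D4:**
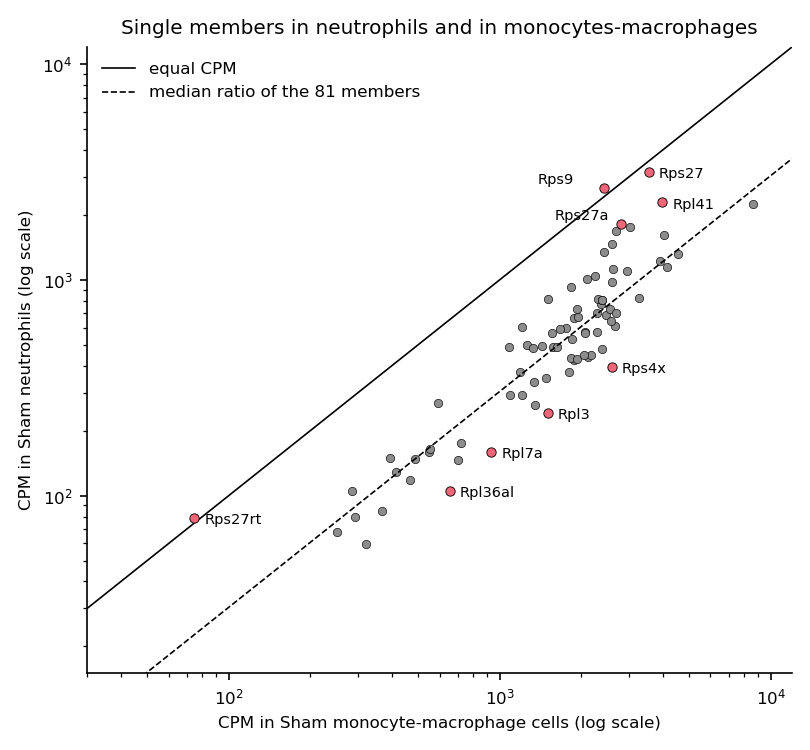
Level of each ribosomal protein gene in Sham neutrophils (y axis, CPM, log scale) against Sham monocyte-macrophages (x axis, CPM, log scale), with the line of equal levels solid and the line of the median ratio dashed. Rps9 (2672 against 2431 CPM) and Rps27 lie near the line of equal levels, and Rps4x (395 against 2590 CPM) lies far below it.

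Lymphocytes stood at the other end of the range. Against Sham monocyte-macrophages, Sham B cells had 73 members at least 1.5-fold higher (all genes 33.8%) and 1 lower (31.1%), with a median log2 ratio of 1.03 (all genes 0.13). T cells had 78 higher (28.0%) and 1 lower (35.7%), with a median of 1.39 (all genes -0.08). Dendritic cells had 72 higher (14.0%) and none lower (38.7%). NK cells had 29 higher, near the share of all genes (38.2%), and none lower (26.7%). Rps27 had the widest B-cell ratio, at 13235 CPM against 3545 CPM (3.73-fold). Rps27rt followed, then Rpl12, a protein at the base of the stalk (1605 and 485 CPM), and Rps20 (8473 and 2689 CPM). The lower member was Rps27l in B cells (185 CPM, 1.74-fold lower) and in T cells (140 CPM, 2.29-fold lower). Rpl10, Rpl7a and Rplp1 were nearly level between B cells and monocyte-macrophages, within 1.22-fold.

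T cells had the lowest ratio to Sham of the classes in the joint clustering; with each library clustered alone, neutrophils were lower for MI-E (0.709 against 0.719). Their share was 42.8%, 31.5% and 31.5%, on 713, 73 and 271 cells, and MI lay 1.36-fold below Sham while MI-E over MI was 0.998 (0.992 to 1.004). The quartiles of single cells ran from 37.1% to 48.6% in Sham, 25.7% to 47.7% in MI and 24.5% to 41.1% in MI-E, so the cells of the libraries overlapped. Between Sham and MI, 1 member was 1.5-fold higher (all genes 38.4%) and 14 were lower, near the share of all genes (15.2%). The members' median was -0.35 against 0.28 for all genes. Rps27 stood at 13458, 6167 and 7062 CPM. Rps28 stood at 9968, 5192 and 4218 CPM, and Rps29, a zinc-binding protein of the small subunit, at 15355, 8282 and 8515 CPM. The exception was Rps27l, at 140, 345 and 246 CPM. From Sham to MI-E, 2 members were higher (34.3%) and 20 lower (9.27%): Rpl35 stood at 4533 and 2295 CPM, while Rpl13a stood at 1181 and 1902 CPM and Rpl23a at 478 and 696 CPM. Between MI and MI-E, 4 were higher (22.9%) and none lower (20.2%).

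Against Sham, the makeup of the T cells differed in MI and MI-E, as the share did. Lef1, a factor of naive and central memory T cells, stood at 294, 128 and 120 CPM, and Ccr7, their homing receptor, at 405, 153 and 161 CPM. S100a4, high in effector and memory cells, stood at 227, 1183 and 2176 CPM, and Mki67, a proliferation gene, at 8.24, 273 and 37.2 CPM. Both thus also differed from MI to MI-E, where the summed share was nearly level (0.998). The part of this makeup in the share was not tested.

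B cells and NK cells were compared between Sham and MI-E only, since MI held 47 and 36 of them. The share of B cells was 33.4% in Sham (2964 cells) and 36.0% in MI-E (317 cells), 1.08-fold, but the ratio was 0.926 when each library was clustered alone. Here 12 members were higher, near the share of all genes (14.8%), and 1 was lower (all genes 14.6%). Rps12, a small subunit protein, stood at 1720 and 3753 CPM (2.18-fold), Rplp1 at 2587 and 4767 CPM and Rpl13a at 1040 and 1820 CPM, while Rps28 stood at 7466 and 4841 CPM (1.54-fold lower), Rpl22l1 at 1255 and 968 CPM and Rps27 at 13235 and 10382 CPM. In NK cells the share was 22.1% (302 cells) and 25.7% (88 cells), 1.16-fold. There 19 members were higher, near the share of all genes (24.0%), and 1 was lower (all genes 22.3%). The highest ratios were those of Rpl23a (291 and 704 CPM), Rps12 (1304 and 2953 CPM) and Rpl12 (778 and 1670 CPM). The lowest were those of Rps27 (7144 and 4360 CPM), Rps27rt, whose interval held 1, and Rps28 (3902 and 3281 CPM).

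Dendritic cells had a share of 27.9%, 23.2% and 21.9%, on 129, 368 and 563 cells. Clustered alone, the Sham and MI libraries gave 24.0% and 24.1%, so the drop from Sham to MI did not hold there. In the joint clustering no member was 1.5-fold higher in MI (all genes 28.9%) and 3 were lower (13%). These were Rps27rt, Rps28 (6706 and 4061 CPM) and Rps27 (5911 and 3650 CPM), while Rpl36al and Rps15 were among the highest, at 1.21-fold and 1.20-fold. From MI to MI-E 2 were higher (8.70%) and none lower (5.09%), Rpl13a from 602 to 933 CPM and Rpl23a from 386 to 595 CPM, with Rpl12 next (828 and 1237 CPM). The lowest were Rpl35 (2607 and 1795 CPM), Rpl37a and Rps28 (4061 and 3132 CPM).

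The MI-E over MI ratios of 4 members follow side by side for 4 classes, which come from the same libraries. The 4 were picked by such ratios: Rpl35 and Rps28 from the lowest and Rps12 from the highest in monocyte-macrophages, Rpl13a from the highest in dendritic cells. Their directions are thus no result about the 81 members. Of these 63 lay below equality in monocyte-macrophages, 71 in neutrophils, 52 in dendritic cells and 39 in T cells. Rpl35 was at 0.579 in monocyte-macrophages, 0.461 in neutrophils, 0.688 in dendritic cells and 0.731 in T cells. Rps28 was at 0.656, 0.588, 0.771 and 0.812. Rpl13a was at 1.16, 1.23, 1.55 and 1.84, and Rps12 at 1.20, 1.12, 1.46 and 1.40. Cells of 1 library share its preparation, so these classes are not replicates, and a difference between libraries in preparation and one between groups cannot be told apart.

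Shares within paralog pairs do not depend on the UMI total of a class. Reads of near-identical copies and pseudogenes can be shared between them, so the shares of a pair carry that uncertainty. Rps27l made up 8.31% of the Rps27 and Rps27l UMIs of Sham monocyte-macrophages, 24.9% in MI and 22.0% in MI-E. In neutrophils, whose Sham cells lay in a different cluster from those of MI and MI-E, the part was 1.86%, 10.1% and 9.11%. In T cells it was 1.03%, 5.29% and 3.36%, and in endothelial cells 5.80%, 22.8% and 17.9%. B cells stood apart, at 1.38% in Sham and 1.68% in MI-E. Rpl36al took 47.6%, 56.4% and 58.7% of its pair in monocyte-macrophages and 37.3%, 64.1% and 65.7% in neutrophils, but 39.4% and 37.0% in B cells of Sham and MI-E. Rpl22l1 took 31.3%, 29.0% and 25.7% in monocyte-macrophages and, on 127, 67 and 598 UMIs, 35.1%, 11.7% and 15.2% in neutrophils. Rps27rt took 2.06%, 1.95% and 2.66% of its pair with Rps27 in monocyte-macrophages, and Rpl7l1 stood at 48.4, 52.5 and 58.1 CPM in monocyte-macrophages.

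Tissue-restricted paralogs were rare and lay below the level filter. Rpl3l, known from heart and skeletal muscle, made up 13.8% (9.56 to 19.0) of the Rpl3 pair in Sham neutrophils, 8.25% (4.88 to 12.9) in MI and 8.49% (7.05 to 10.1) in MI-E, on 31, 17 and 114 UMIs. In monocyte-macrophages it made up 0.136%, 0.138% and 0.201%. Rpl39l, known from the testis, was seen with 56, 44 and 5 UMIs in monocyte-macrophages, and Rpl10l, a retrogene of the testis, with 2, 1 and 0.

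**Figure D5:**
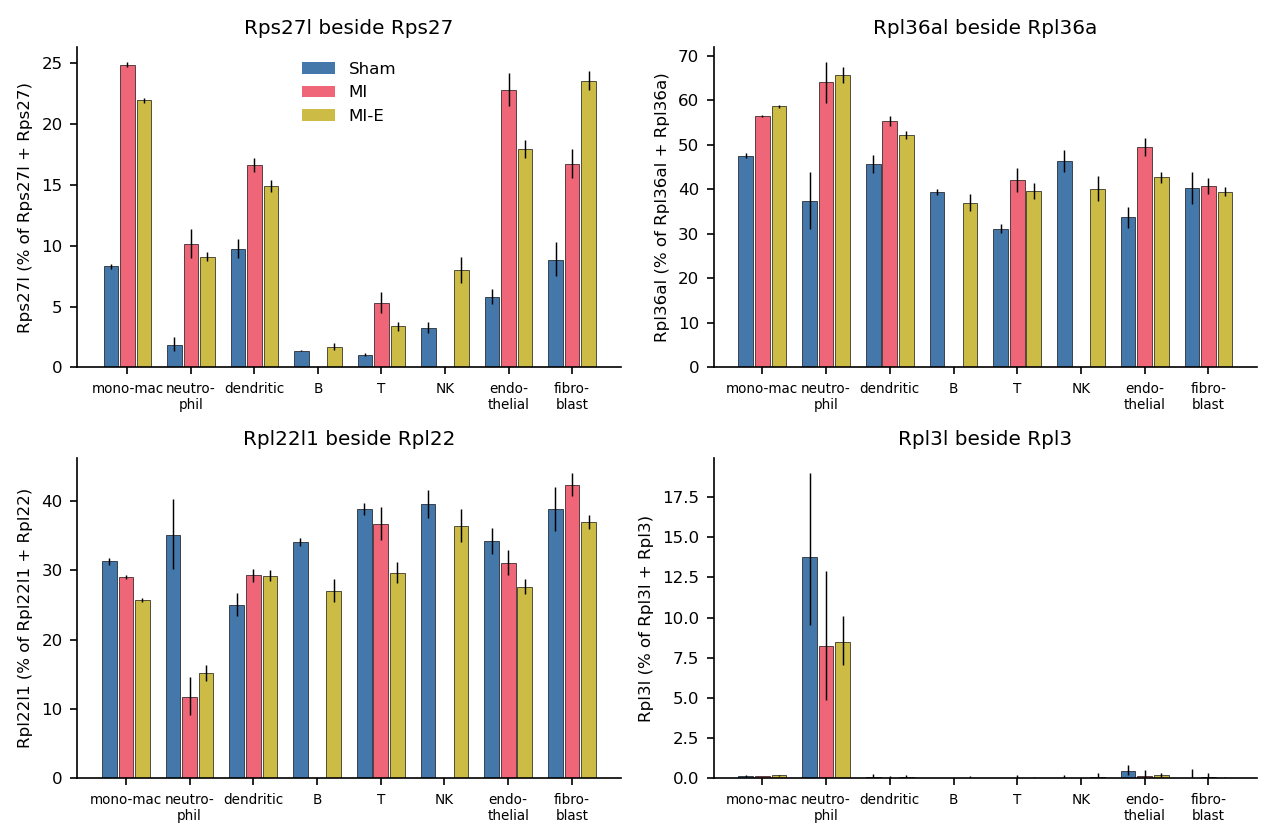
Share of the pair's UMIs taken by the paralog (y axis, percent, with 95% counting intervals) for Rps27l, Rpl36al, Rpl22l1 and Rpl3l in each class and library (x axis); classes with under 50 cells in a library are not drawn. Rps27l is at 8.31% in Sham and 24.9% in MI in monocyte-macrophages and at 1.38% and 1.68% in B cells.

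The 9 members that are not ribosomal proteins had their own patterns. Rps6ka2, which encodes the kinase RSK3, was higher in neutrophils than in monocyte-macrophages, 61.2-fold in Sham (40.1 to 95.2). It stood at 93.7, 39.2 and 52.7 CPM in neutrophils and 1.53, 3.38 and 3.50 CPM in monocyte-macrophages. Its mean over the libraries, 5.51 CPM, only just passed the level filter. Rps6ka3 (RSK2) stood at 40.9, 35.2 and 33.5 CPM in monocyte-macrophages and 117, 93.1 and 114 CPM in endothelial cells. The S6 kinase gene Rps6kb1 gave 25.8, 26.8 and 25.3 CPM in monocyte-macrophages and 66.0 and 74.1 CPM in B cells of Sham and MI-E. Rps6kb2 stood at 6.03, 6.87 and 7.89 CPM, Rps6ka1 at 22.1, 31.7 and 26.7 CPM, Rps6ka5 at 9.47, 4.795 and 3.996 CPM and Rps6kc1 at 8.58, 6.15 and 5.07 CPM. Rps19bp1 had the largest ratio among them in monocyte-macrophages, at 26.8, 65.9 and 52.4 CPM, 2.46-fold from Sham to MI.

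The rest of the translation machinery was read from lists of known function, with the same 1.5-fold bound. In monocyte-macrophages from Sham to MI, where 25.0% of all genes were higher and 18.1% lower, 11 of 37 initiation factors were higher and 3 lower (median log2 0.36), and 2 of 9 elongation factors higher and 1 lower (0.13), shares of higher genes near that of all genes. Of 48 ribosome biogenesis genes 14 were higher, again near the share of all genes, and 2 lower (0.29): Nhp2, of the pseudouridylation particle, stood at 66.0 and 169 CPM, and Nop58, of the methylation particle, at 244 and 76.1 CPM. Among host transcripts of small nucleolar RNAs, many of which begin with pyrimidine tracts as well, 1 of 11 was higher and 8 lower (-0.94), with Snhg8 at 174 and 59.1 CPM. Of 77 mitochondrial ribosomal proteins, which work in the organelle's own ribosome, 54 were higher and 1 lower (0.81), and their summed level was 3511 CPM in Sham and 6457 CPM in MI. Proliferation genes were higher in 19 of 20. From MI to MI-E, where 4.90% of all genes were higher and 7.06% lower, 12 of the 77 mitochondrial ribosomal proteins were lower and none higher (-0.33), none of the 37 initiation factors passed the bound (0.08), near those low shares, and 19 of 20 proliferation genes were lower. Of the genes outside the symbol rule, Rack1 stood at 774 and 976 CPM in MI and MI-E.

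The genes whose levels followed the ribosomal protein share most closely were named by rank. Across the 22 class and library sums, which share libraries and depth, and among 2483 genes, Naca, the nascent chain binding subunit, had a Pearson r of 0.973 with the share, Nsa2, a large subunit assembly factor, 0.964, the initiation factor gene Eif3f 0.963, the elongation factor gene Eef1b2 0.962 and Hnrnpa1, a splicing protein, 0.954. Rab7, a late endosome GTPase, ran the opposite way with -0.960.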

How the data were processed

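Deposited UMI counts per gene and barcode, whole numbers that the authors had not normalized, were used for all 3 libraries; Cell Ranger 5.0.1 and mm10 are named in the submitters' processing notes. Cells with under 200 genes (60 Sham, 48 MI, 31 MI-E) or over 10% mitochondrial UMIs (192, 216, 397) were left out. Doublets scored by Scrublet in scanpy 1.11.5 were removed (1032, 662, 291). Its automatic threshold was used in MI-E only, where the 291 marked lay well under the expected 10.2% of 12707 barcodes. In Sham and MI the highest scores up to the expected doublet rate (9.09% and 7.28%) were taken, so the libraries were not filtered alike. Clustering used 2000 variable genes without members, 30 components, 15 neighbours and resolution 1. Thresholds for naming clusters were set after the clusters were seen, and no deposited annotation was used here.

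UMIs were summed per class and library, for classes of at least 50 cells, and divided by all UMIs of that class. Genes with a mean of at least 5 CPM over both sums were measured, and all 81 ribosomal proteins passed in each comparison. Log2 ratios used log2(CPM + 1), and folds used CPM. Ratio intervals are exact binomial intervals. They were checked on counts simulated with counting error only, so the check does not bear on the spread between cells or libraries. Each group is 1 library, so no test was made. The members and gene lists were chosen with earlier results of these data known. Named were the 6 highest and 6 lowest members by log2 ratio in monocyte-macrophages, the 3 (between classes 4) highest and lowest elsewhere, the paralogs, the stalk, 6 members with known regulation and all members that are no ribosomal proteins. Other named genes of the lists, Rps29 and the T-cell state genes were chosen after their values were seen. Alternatives were other filters, clusterings, totals, pseudocounts and TMM scaling (edgeR 4.0.16), whose effect the closing section gives. UMI depth sets the precision: sums of a class held enough UMIs for narrow intervals, which cover counting error and not the spread between mice. Transcript lengths came from GENCODE M21, promoters from RefSeq. A few items are not reported here.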

Additional observations from a re-analysis of the deposited data

Results flagged for a closer look

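Cell classes of the same libraries differed from Sham in opposite directions, and these differences between classes were not tested. For MI over Sham the ratio of ribosomal protein shares was 1.15 in monocyte-macrophages, 0.831 in dendritic cells and 0.737 in T cells. Within monocyte-macrophages it was 1.08 in cluster 2 (Lyve1, Timd4), 1.08 in cluster 3 (Lilra5, Mgl2) and 0.845 in cluster 13 (Ly6c2, Plac8). For MI-E over Sham it was 1.08 in B cells and 1.16 in NK cells but 0.735 in T cells. With each library clustered alone, 2 of these did not hold: dendritic cells gave 1.00 (MI over Sham) and B cells 0.926 (MI-E over Sham). The ratio kept its side of 1 in monocyte-macrophages (1.15), NK cells (1.10) and T cells (0.720 for MI, 0.719 for MI-E).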

How the results depend on the processing

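Of the ratios and counts that answer the comparisons, 25 alternative values stayed close to the reported one, 35 moved, 7 counts grew and 1 shrank past 1.5 times, and 1 ratio turned; these 4 share ratios kept their side of 1 except where named. Values are given in the order monocyte-macrophages MI over Sham (1.15), monocyte-macrophages MI-E over MI (0.839), neutrophils MI-E over MI (0.735) and Sham B cells over monocyte-macrophages (2.13), leaving out those that hardly moved. With members used in clustering they were 1.16 and 0.836, with each library clustered alone 1.15, 0.890, 0.778 and 2.15, and with no doublets removed 1.16, 0.830, 0.758 and 2.10. At most 5% mitochondrial UMIs gave 1.18, 0.868, 0.747 and 2.12. At least 2000 UMIs per cell gave 1.14, 0.864 and, for B cells, 2.14. Without mitochondrial genes in the total they were 1.14 and 0.844, and without the 50 most abundant other genes 1.07, 0.858, 0.749 and 1.87. TMM scaling gave 1.27, 0.869, 0.811 and 1.98, and means of per-cell shares 1.12, 0.854, 0.794 and 2.14. Chosen after the data were seen, adding unnamed clusters gave 1.10 and, for B cells, 2.10, and the geometric mean within shared clusters 0.995 (the other side of 1), 0.853 and 0.727. The cause of these changes was not tested.

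The 8 members at least 1.5-fold higher in MI monocyte-macrophages became 13 at the 5% mitochondrial bound and 21 with TMM, and the 1 lower became 0 with TMM. It became 2 at 2000 UMIs, without the 50 most abundant genes, with all genes of the symbol rule and with unnamed clusters added, and 3 with no minimum level. Clustering each library alone also turned shares for MI-E over Sham in monocyte-macrophages (1.02) and B cells (0.926) and for MI over Sham in neutrophils (0.911) and dendritic cells (1.00). In Sham neutrophils over monocyte-macrophages the log2 ratio of Rps27rt became -0.22 with members used in clustering, -0.19 with no doublets removed, -0.018 at the 5% bound and -0.98 at 2000 UMIs, that of Rps9 became -0.13 at 2000 UMIs, and that of Rps27 0.33 with TMM. Of other values, 374 stayed close, 87 moved and 10 turned. No paired analysis was possible because each group has 1 library.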
